A study of Oryctolagus cuniculus with 4 samples.

Results

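The 7 genes ACTN3, MYL1, MYL11, TNNC2, TNNI2, MYOZ1 and CKM encode contractile and energy proteins of skeletal muscle, most of them forms that prevail in fast-twitch fibres. They were taken by name from the arrays of a study of rabbit ligamentum flavum, the elastic ligament between neighbouring vertebral arches. All 7 of the 7 listed genes were found, each with 1 probe, among 1489 genes named on the array and 22901 features (named genes plus accessions without a name) in all. The samples were ligamentum flavum of male rabbits aged 34 weeks, labelled as 16 weeks after surgery. In the operation given by the labels, the muscle over L3/4 was removed and the levels on either side of it, L2/3 and L4/5, underwent instrumented posterolateral fusion. The 4 groups were the level of intervertebral stress concentration, called the ISC level (L3/4, between the fused levels), a control taken at L3/4 (the L3/4 control), the fused levels themselves, and a control taken at L2/3 and L4/5, called the L2/3+L4/5 control. Each group was 1 array of total RNA. Whether a sample pools several animals or both levels, and whether control animals had surgery, are points not given in the sources used here.

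Skeletal muscle contracts when calcium released inside the fibre binds troponin on the thin filament, which lets the myosin heads of the thick filament pull on actin. Fast-twitch fibres build this machinery from their own isoforms of troponin, myosin and actinin, and slow-twitch fibres from others. A ligament is built by fibroblasts and has no sarcomeres, and back muscle lies over the arches that the lumbar ligamentum flavum joins. Levels are given as log2 signal minus the array's 75th percentile over its probes, so 0 is that percentile. A gene counts as measured in a comparison where its probe was well above background on both arrays, and 2-fold serves only as a yardstick of size. Levels of different genes come from different probes and are not compared with each other.

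The share of probes well above background ran from 59.6% in the L3/4 control to 67.9% at the ISC level, and no spot was saturated. All lay on 1 slide. Of the 28 values of the 7 genes, 27 were well above background, and MYOZ1 in the L3/4 control was the exception. With 1 array per group there is no replicate, no test and no measure of the spread between animals. The number of arrays therefore limits the precision, and the errors printed are the scanner software's error of a single spot, which says nothing of animals. Of the 17 tendon and ligament markers listed, 6 were named on the array (TNMD, COL1A2, LUM, DCN, OGN and BGN). All 6 were well above background on every array except TNMD, the tendon and ligament gene tenomodulin, at the fused levels. Elastin, the defining matrix gene of this ligament, was not among the genes named here.

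The 7 genes shared 1 pattern. Each was highest in the L2/3+L4/5 control, by 22.7-fold (TNNI2) to 50.3-fold (MYL11) over the next highest array. The other 3 arrays lay close together, within 4.35-fold of each other for the 6 genes measured on all of them. Signal of the 7 genes summed over an array, each relative to the array's 75th percentile, was 744 in the L2/3+L4/5 control, 22.0 at the ISC level, 20.4 in the L3/4 control and 11.4 at the fused levels. The sum gives most weight to the brightest probe. In a bulk sample, fewer cells of a type and less RNA per cell cannot be told apart.

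The troponin genes TNNC2 and TNNI2 encode the calcium-binding and the inhibitory subunit of the fast-fibre troponin complex. The level of TNNC2 was 4.16 at the ISC level, 4.17 in the L3/4 control, 3.24 at the fused levels and 9.26 in the L2/3+L4/5 control. The ISC level and the L3/4 control could not be ordered, since they differed by 0.01 on the log2 scale, less than the spot error. For TNNI2 the level was −0.39 at the ISC level, −0.73 in the L3/4 control, −1.08 at the fused levels and 4.11 in the L2/3+L4/5 control. Here the ISC level, the L3/4 control and the fused levels formed a run in which each neighbour differed by less than 2 spot errors (0.34 and 0.36).

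MYL1 and MYL11 encode the essential and the regulatory myosin light chain, which stiffen and tune the neck of the fast myosin head. MYL1 was at 0.61 at the ISC level, −0.64 in the L3/4 control, −1.51 at the fused levels and 5.14 in the L2/3+L4/5 control. All 4 arrays were separated by more than 2 spot errors for this gene. MYL11 was at −0.30 at the ISC level, −0.82 in the L3/4 control, −0.82 at the fused levels and 5.35 in the L2/3+L4/5 control. The L3/4 control and the fused levels were indistinguishable for MYL11, and the range over the 3 low arrays was only 1.44-fold, against 4.35-fold for MYL1.

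The Z-disc genes ACTN3 and MYOZ1 encode the fast-fibre actinin that cross-links thin filaments at the end of the sarcomere and a calsarcin that binds actinin and calcineurin there. ACTN3 was at −0.81 at the ISC level, −1.63 in the L3/4 control, −2.64 at the fused levels and 4.54 in the L2/3+L4/5 control. As for MYL1, every array stood more than 2 spot errors from the next. MYOZ1 was at −1.56 at the ISC level, −2.34 at the fused levels and 3.22 in the L2/3+L4/5 control. Its signal in the L3/4 control was 1.23 arbitrary units, not well above background, where the lowest signal well above background was 6.01.

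CKM encodes the muscle creatine kinase, which regenerates ATP beside the myofilaments and at the M-band. It was at −2.66 at the ISC level, −2.41 in the L3/4 control, −2.80 at the fused levels and 2.55 in the L2/3+L4/5 control. The 3 low arrays had signals of 14.8, 10.1 and 12.2 units, which were 2.27, 1.67 and 1.76 times the dimmest signal that passed as well above background there. These values are thus close to background, and their range was 1.32-fold.

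**Figure D1:**
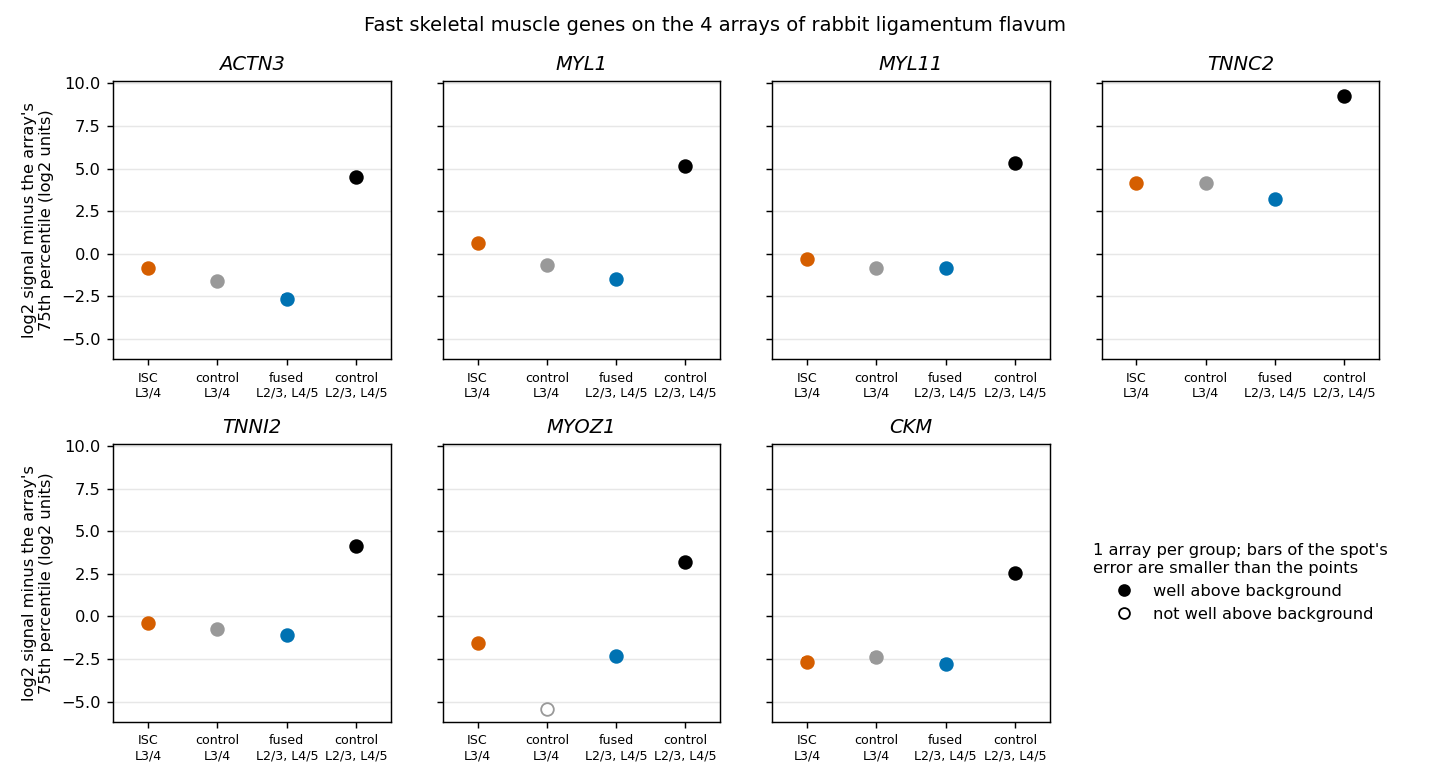
Level of each of the 7 genes (log2 signal minus the array's 75th percentile, log2 units) on the 4 arrays, 1 array per group and 1 panel per gene, with filled points well above background and the open point not. In every panel the L2/3+L4/5 control is the high point, from 2.55 for CKM to 9.26 for TNNC2, and the other arrays lie below it, close together except for the open point of MYOZ1.

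Setting the fused levels against their own control asks which transcripts differ in the ligament of a fused segment. At the fused levels all 7 genes were lower by at least 2-fold, where 9.15% of 13715 measured features were lower by at least 2-fold and 7.82% higher by as much. As processed here ACTN3 was lower by the most, at −7.18 ± 0.28 (log2 ratio and spot error), which is 145-fold. Its signal at the fused levels was 13.7 units, only 1.97 times the dimmest signal well above background there. With the processing ACTN3 ranged up to −4.45, while TNNC2 stayed at −5.76 or lower and MYL1 at −5.10 or lower. The rank and fold of ACTN3 thus depend on the processing. MYL1 was at −6.65 ± 0.22, MYL11 at −6.17 ± 0.21 and TNNC2 at −6.01 ± 0.20. MYOZ1 at −5.56 ± 0.24, CKM at −5.35 ± 0.28 and TNNI2 at −5.20 ± 0.21 followed, the last being 36.7-fold. The median over the 7 genes was −6.01 (SD over genes 0.72), beside −0.13 over all features, and the signals left were 0.691% to 2.73% of the control's. Only 23 of the 13715 features (0.168%) had a ratio as low as that of TNNI2 or lower, these 7 among them, and the lowest of all features was at −7.54.

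These ratios rest on the single array of the L2/3+L4/5 control. Set against the L3/4 control, an alternative that leaves that array out, the fused levels had 1 of 6 measured genes at least 2-fold lower, ACTN3 at −1.01 ± 0.31. Of all 13353 features in that comparison, 12.9% were lower by at least 2-fold and 11.2% higher by as much. The remaining genes were at −0.93 (TNNC2), −0.87 (MYL1), −0.40 (CKM), −0.36 (TNNI2) and −0.01 (MYL11), with a median over the 6 of −0.63 beside −0.19 over all features. MYL11 changed sign with the processing, from −0.10 to 0.09. MYOZ1, without a measured value in the L3/4 control, was at least 1.75-fold higher at the fused levels. Against the L3/4 control, fusion and level cannot be told apart.

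The comparison of the L3/4 control with the L2/3+L4/5 control shows how far the 2 arrays labelled as controls differ from each other. All 6 measured genes were lower in the L3/4 control, beside 9.20% of 13137 features at least 2-fold lower and 8.38% at least 2-fold higher. As processed here MYL11 at −6.17 and ACTN3 at −6.16 differed most of those measured, 71.9-fold and 71.7-fold, and MYL1 was at −5.78. With the processing MYL11 ranged up to −4.90 and ACTN3 up to −4.01, while TNNC2 stayed at −5.09 or lower. TNNC2 was at −5.09, CKM at −4.96 and TNNI2 at −4.84. MYOZ1 was at least 82.9-fold lower, a bound from the lowest signal well above background in the L3/4 control. The median over the 6 genes was −5.43 (SD over genes 0.61) beside 0.08 over all features, and 17 features (0.129%) were as low as TNNI2 or lower. This comparison and that of the fused levels share the L2/3+L4/5 control.

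Setting the ISC level against the L3/4 control asks which transcripts differ under concentrated mechanical stress at a level whose overlying muscle was removed. Only MYL1 of the 6 measured genes was higher there by at least 2-fold, at 1.25 ± 0.21 or 2.38-fold, and none was 2-fold lower. Of 13731 features, 9.11% were higher by at least 2-fold and 10.5% lower by as much. ACTN3 was at 0.82 ± 0.24, MYL11 at 0.52 ± 0.21 and TNNI2 at 0.34 ± 0.21. TNNC2 was at −0.01 ± 0.20 and CKM at −0.26 ± 0.31, both within the spot error of no difference, and TNNC2 ranged from −0.03 to 0.37 with the processing. MYOZ1 was at least 3.02-fold higher. The median over the 6 was 0.43, beside −0.16 over all features. With normexp background correction, which pulls dim spots together, MYL1 was under 2-fold, at 0.67. Stress and the removal of muscle cannot be told apart, since both were at L3/4.

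Against the L2/3+L4/5 control, the ISC level had all 7 genes at least 2-fold lower, beside 5.03% of 14112 features lower and 3.54% higher. The ratios ran from −5.65 for MYL11, 50.3-fold, over −5.35 for ACTN3, −5.21 for CKM, −5.10 for TNNC2, −4.78 for MYOZ1 and −4.53 for MYL1 to −4.50 for TNNI2. This is 1.99% to 4.41% of the control's signal. The spread over the genes was the smallest of the 3 comparisons with that control, with an SD of 0.43.

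The ISC level was also set against the fused levels, a comparison added after the values were seen, which uses neither control. All 7 genes were on the higher side at the ISC level, but only MYL1 at 2.12 (4.35-fold) and ACTN3 at 1.83 (3.55-fold) by at least 2-fold, beside 6.98% of 14564 features higher and 7.77% lower. TNNC2 was at 0.92, MYOZ1 at 0.79, TNNI2 at 0.69, MYL11 at 0.52 and CKM at 0.14. CKM was at −0.06 with normexp, so its side depends on the processing, and ACTN3 was then at 0.55. The median was 0.79 beside 0.05 over all features.

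**Figure D2:**
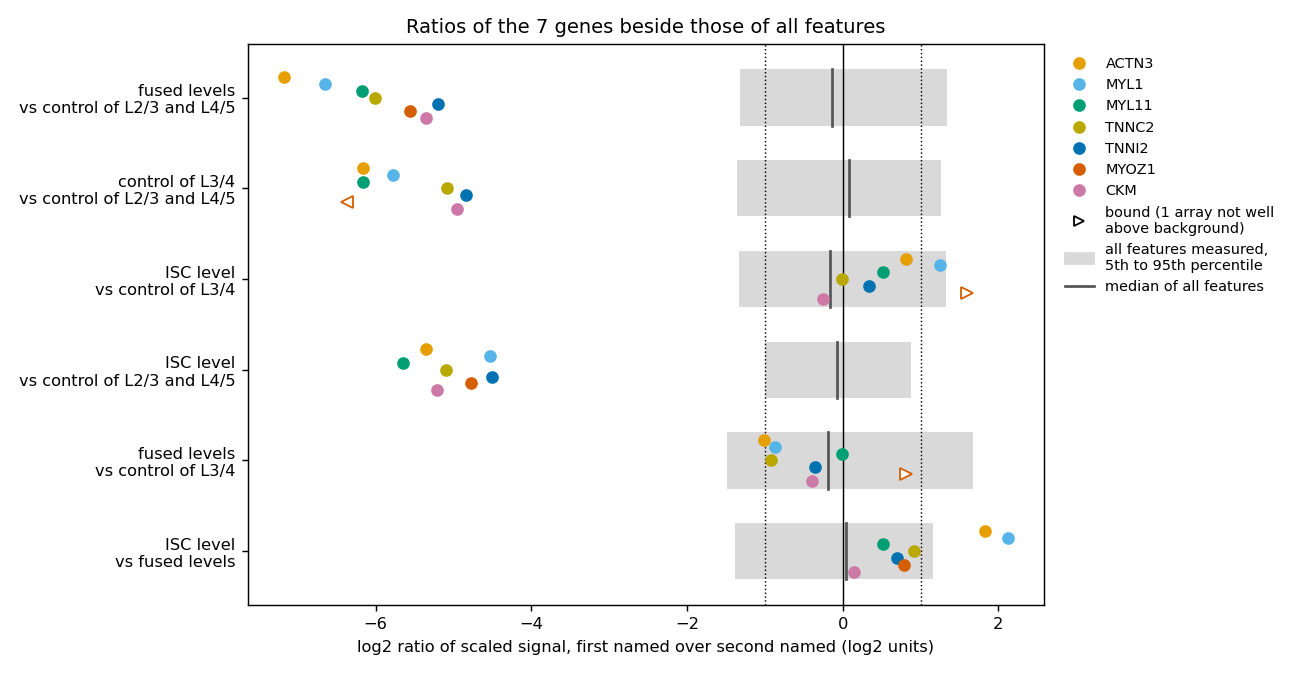
Log2 ratio of each of the 7 genes (coloured points; triangles are bounds) in the 6 comparisons, with grey bars for the 5th to 95th percentile of all measured features, a line at their median and dotted lines at 2-fold. In the 3 comparisons with the L2/3+L4/5 control the genes lie between −7.18 and −4.50, far outside the grey bars, and in the comparisons without it they lie between −1.01 and 2.12.

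Against the L2/3+L4/5 control, other fast-fibre genes lay with the 7. Of 10 listed, 5 were named on the array, and MYH1, a fast myosin heavy chain, was at 2.43 at the ISC level, 2.77 in the L3/4 control, 1.54 at the fused levels and 6.54 in the L2/3+L4/5 control. Its ratio at the fused levels was −4.99, and its 4 probes ranged from −5.25 to −4.99. ATP2A1, the fast-fibre calcium pump that refills the sarcoplasmic reticulum, was at −5.11. CASQ1, the calcium-storing calsequestrin of fast fibres, was at least 86.7-fold lower, since it was well above background in the control but not at the fused levels. MYH13, a myosin heavy chain best known from eye muscle, was at least 156.7-fold lower by its brightest probe, but another of its probes was at −0.26. The MYH13 probe that differed read 928 units in the L2/3+L4/5 control against 6.40 to 23.4 on the other arrays, while the other 2 probes stayed between 7.71 and 22.8 on all 4 arrays. Myosin heavy chain genes are similar in sequence and the probe sequences were not examined, so which of them these probes read is uncertain. MYLK2, a myosin light chain kinase, was not well above background on any array.

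Against the L3/4 control the measured fast-fibre genes were closer. In the fused sample 2 of 2 were lower by at least 2-fold (MYH1 at −1.22 and ATP2A1 at −1.47), beside 12.9% of all features. At the ISC level 0 of 4 were at 2-fold, beside 9.11% of all features higher and 10.5% lower. By their brightest probes these 4 lay below 0 there, ATP2A1 at −0.80, MYH13 at −0.65, MYH1 at −0.34 and CASQ1 at −0.29. Their median was −0.50, whereas that of the 7, over the 6 measured, was 0.43. Between the controls, 4 of 4 were lower in the L3/4 control, with a median of −4.40.

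Slow-fibre genes, of which 3 of 12 were named, had ratios of either sign. TNNC1, the slow and cardiac troponin C, was well above background only in the L2/3+L4/5 control, with a signal of 51.5 units, and its fused-level signal was at least 8.69-fold lower. ATP2A2, the calcium pump of slow fibres and of many other cells, was at 0.44, with 5 probes from −0.42 to 0.46. CASQ2, the slow and cardiac calsequestrin, was at −1.97 at the fused levels and at 0.49 between the controls. At the ISC level it was at −3.11 against the L3/4 control, where the 7 fast genes had a median of 0.43 over the 6 measured.

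Of the sarcomere genes of both fibre types, 4 of 33 were named and 3 measured at the fused levels. DES, the intermediate filament desmin that ties Z-discs together, was at −4.29. TPM1, a tropomyosin also made by fibroblasts and smooth muscle, was at −2.73 and TPM2 at −0.82. ANKRD1, a stretch-responsive ankyrin repeat protein, was at least 42.9-fold lower. The median of the 3 measured was −2.73 against the matched control and −0.64 against the L3/4 control.

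Of 16 genes of excitation and calcium handling, 12 were named and 7 measured at the fused levels, and 5 of the 7 were lower by at least 2-fold (median of the 7, −3.76). RYR1, the calcium release channel, was at −4.95, SLN, the small inhibitor of the calcium pump, at −4.87, and SRL, the calcium-binding sarcalumenin, at −4.75. SYPL2 of the triad membrane was at −3.76 and CACNB1, a calcium channel subunit, at −2.71, while KCNJ2 was at −0.49 and HRC at −0.39. The potassium channel gene KCNJ2 and HRC, a calcium-binding protein of the reticulum, were thus under 2-fold. Bounds were at least 12.1-fold lower for JPH1, 5.38-fold for CACNG1, 2.86-fold for JPH2 and 2.32-fold for TRDN, and CACNA1S was well above background on no array. SLN also separated the low arrays, at 3.75 in the L3/4 control against 1.41 at the ISC level and 1.57 at the fused levels.

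Genes of muscle energy supply, 12 of 21 named, had 10 of 11 measured lower by at least 2-fold in the fused sample, with a median of −3.25, and a median of −0.33 against the L3/4 control. The lowest were PYGM, muscle glycogen phosphorylase, at −6.74 and ENO3, muscle enolase, at −6.16. The 2 highest were PKM at −1.53 and GYS1 at −0.45. Of the membrane and dystrophin complex genes, SGCB, a sarcoglycan, was at −1.49, SSPN at −0.30 and DAG1, dystroglycan, at −0.08.

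Of the myogenic regulators, 3 of 19 were named and 2 measured at the fused levels. MEF2C, a transcription factor of muscle and other cells, was at −0.03 and MSTN, which encodes the growth inhibitor myostatin, at −0.92 at the fused levels against the matched control, with 0 of 2 at 2-fold. MYOG, myogenin, was well above background at the ISC level only, at 11.1 units, where the dimmest signal well above background was 6.53. The bounds were small. MYOG was at least 1.05-fold higher there than in the L3/4 control, 1.10-fold than in the L2/3+L4/5 control and 1.46-fold than at the fused levels. None of 10 neuromuscular junction genes was named, so they were not analysed here. CAPN3 of the atrophy list was at least 3.55-fold lower, and NPPA of the cardiac list was not well above background on any array.

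**Figure D3:**
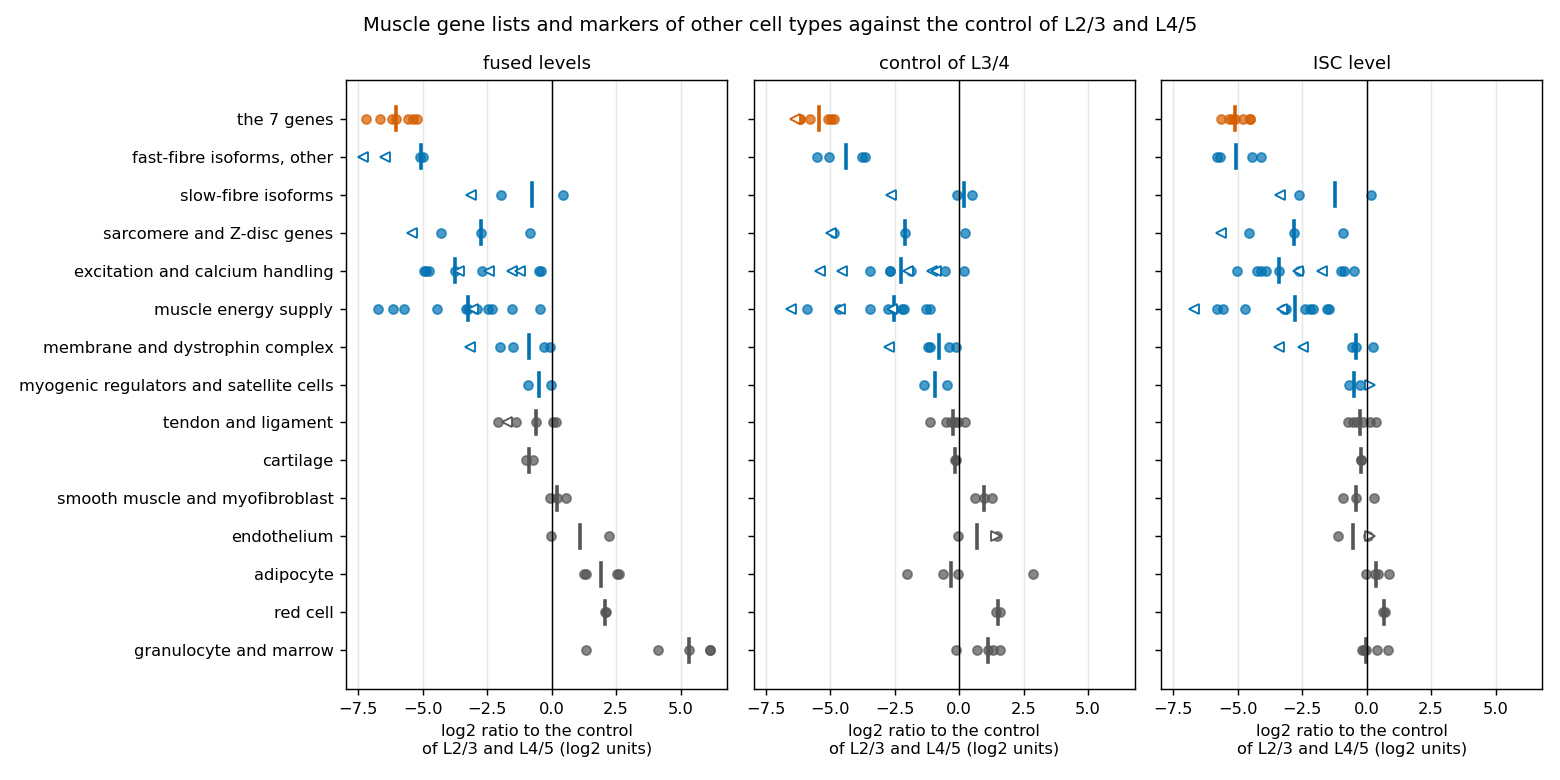
Log2 ratio to the L2/3+L4/5 control of the 7 genes, of other muscle gene lists (blue) and of markers of other cell types (grey) at the fused levels, in the L3/4 control and at the ISC level; points are genes, triangles bounds and bars medians of the measured genes. The 7 genes and the other fast-fibre genes are the lowest groups in all 3 panels, and granulocyte markers have a median of 5.34 at the fused levels, 1.12 in the L3/4 control and −0.01 at the ISC level.

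Markers of other cell types also differed between the arrays. Summed scaled signal of the 6 tendon and ligament markers was 742 at the ISC level, 627 in the L3/4 control, 575 at the fused levels and 716 in the L2/3+L4/5 control. This sum too gives most weight to the brightest probes, COL1A2 at 8.42 and OGN at 8.09 in the L2/3+L4/5 control. The median ratio of the measured markers was −0.62 at the fused levels, −0.23 in the L3/4 control and −0.26 at the ISC level, each against that control. At the fused levels the proteoglycan genes BGN and LUM were lowest of the 5 measured, at −2.07 and −1.36, and COL1A2, a type I collagen chain, was at −0.62. DCN at 0.07 and OGN at 0.18 were near 0 by their brightest probes. The 6 DCN probes ranged from −0.18 to 0.91 and the 5 OGN probes from 0.18 to 1.45. TNMD was at least 3.32-fold lower. The 3 named smooth muscle markers (MYH11, ACTA2 and CALD1) summed to 26.2, 65.1, 37.7 and 31.8 in the same order, an order unlike that of the 7 genes. While the 7 genes were also low at the ISC level and in the L3/4 control, granulocyte, red cell and adipocyte markers summed highest at the fused levels. The 5 granulocyte markers summed to 283 there and to 5.07 to 11.3 on the other arrays, and 5 of 5 were at least 2-fold higher than in the control. The red cell markers summed to 434, 779, 1152 and 272, so the array with the highest muscle signal had the lowest. The 4 adipocyte markers summed to 7.83, 4.97, 20.0 and 6.07, and both Schwann and neural markers to 1.29, 2.78, 2.37 and 0.853. The endothelial 3 summed to 1.68, 2.18, 6.84 and 1.67, and VCAM1 made most of the sum at the fused levels. Against the L2/3+L4/5 control VCAM1 was at 2.21 there and SOX17 at −0.04, while KDR was well above background on neither array. The 2 cartilage markers summed to 3.53, 3.73, 2.44 and 4.10, with COL2A1 taken at its brightest probe. That probe was at −0.73 at the fused levels against the L2/3+L4/5 control, but the 5 measured COL2A1 probes ranged from −4.63 to −0.73. Between the controls they ranged from −2.46 to −0.14, so the size of the COL2A1 difference depends on the probe. CD14 of the macrophage list was at 1.07 at the fused levels, the T and B cell list had 1 measured gene at −0.08, and SPP1 of the bone list was at −0.63. The part of these cell types in the muscle result was not tested.

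The genes most like the 7 were ranked by the root mean square difference between a gene's centred profile over the 4 arrays and the centred median profile of the 7, among 1193 named genes. The 10 nearest lay at 0.453 to 0.665 log2 units, and 9 of them were in the muscle lists: SGCA, FBP2, ENO3, MYH1, RYR1, CKMT2, ATP2A1, MYH13 and DES. How many of the 1193 were in those lists is not given here, so the count of 9 has no background beside it. The lists were also chosen with earlier results of these data known. Of the 10, 4 were well above background on all 4 arrays. SGCA, RAG2 and FBP2, the 3 nearest, were well above background in the L2/3+L4/5 control only, so their distances rest on values near background on the other arrays. A gene was ranked if well above background on any array, so these 3 entered through the array where they were highest. RAG2, the antigen receptor recombinase and no muscle gene, ranked second at 0.546, but 1 of its 3 probes carried this alone, at 30.7 units in the L2/3+L4/5 control, and the others were above background on no array. Among the 7, TNNC2 lay at 0.157 from their median and MYOZ1 at 1.53, the latter with its value in the L3/4 control not well above background. Pearson's correlation as the measure named 3 of the same 10.

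In the L2/3+L4/5 control, 36 of 14529 features well above background (0.248%) were at least 16-fold above each of the other arrays, and 17 of these were named genes: the 7, and ANKRD1, CASQ1, CKMT2, DES, ENO3, MYH13, PPP1R3A, PYGM, RYR1 and SRL, all in the muscle lists. At 4-fold there were 114 features, among them the 7 and 23 genes of the muscle lists. The share of muscle-list genes among all named genes is not given here, so these counts too have no background beside them. The L3/4 control had 4 features 16-fold above the rest and the ISC level 0, none of them named. The fused levels had 128, among whose 7 named genes were the granulocyte genes CAMP and S100A9.

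**Figure D4:**
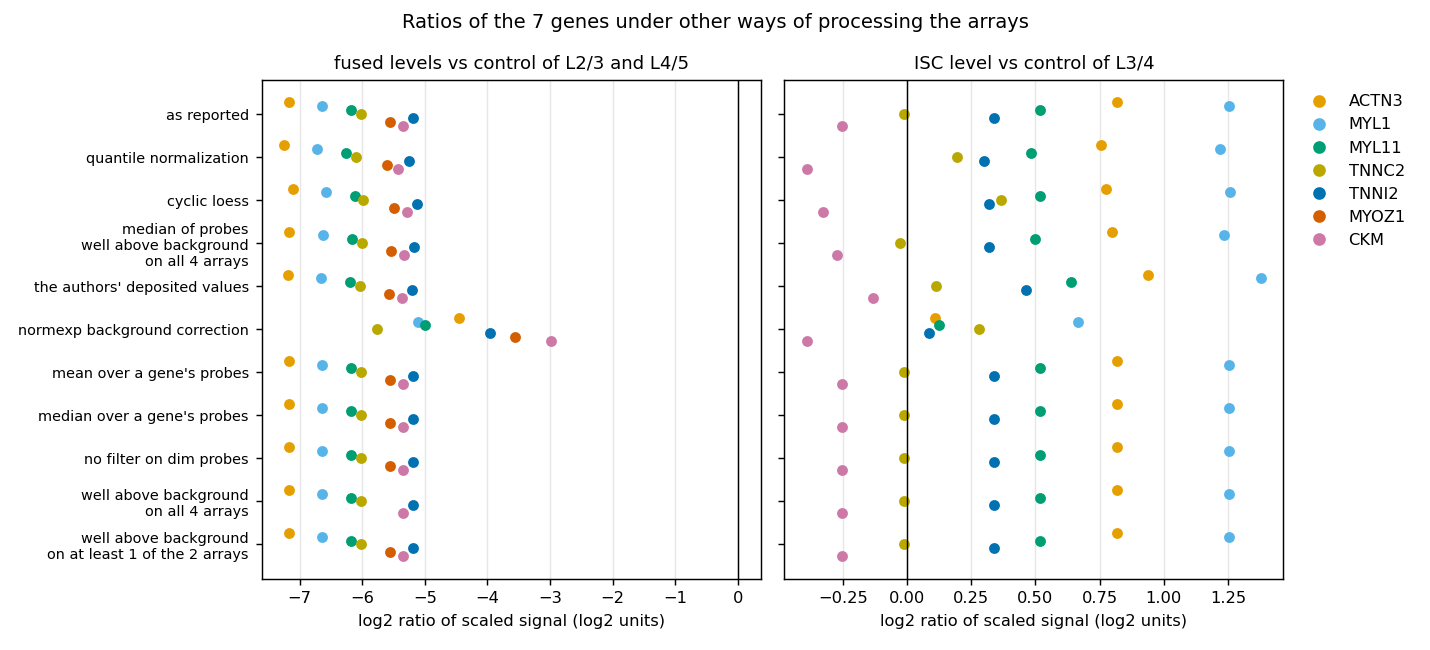
Log2 ratio of the 7 genes under the processing as reported and 10 other ways of processing, for the fused levels against their control (left) and the ISC level against the L3/4 control (right). The left-hand genes stay at −2.99 or lower throughout, with the smallest differences under normexp, and on the right TNNC2 lies on either side of 0, while MYOZ1, known there as a bound only, is not drawn.

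Over all the ways of processing, ACTN3 at the fused levels against their control ranged from −7.25 to −4.45 and CKM from −5.42 to −2.99. TNNC2 ranged only from −6.10 to −5.76. The smallest differences came with normexp, which adds an offset of 50 units to every spot.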

How the data were processed

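Per the labels, 4 Agilent rabbit arrays were each hybridised with Cy3-labelled cDNA made from total RNA. The submitters' processing notes name Agilent Feature Extraction 12.0.3 as the scanner software. Per the file headers, the deposited processed signal is a spot intensity on a linear scale, background-subtracted and detrended within the array but not scaled between arrays, with its own error and other marks of 0 or 1 for each spot (well above background, saturated, outlier). The authors' deposited value table holds the same intensity times 1 factor per array (23.3, 37.5, 24.7 and 29.3 in the order ISC level, L3/4 control, fused levels, L2/3+L4/5 control), with medians of 515.5, 442.3, 498.4 and 504.0. Scale and direction are therefore known, and how the factors were chosen is not.

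Here, outlier spots and control spots were left out, spots of a probe were averaged, and log2 signal minus the array's 75th percentile was used (43596 probes, in Python 3.11.15). A probe whose only spot was an outlier on any array was dropped. Gene names came from the array's RefSeq transcripts through a RefSeq gene table, which named 3792 probes (8.70%), while 24685 probes with Ensembl names stayed unnamed. No sequence is printed. The values of a few genes are not reported here. A gene with several probes was taken at the probe with the highest mean signal. Where 1 of 2 arrays was not well above background, the fold is a bound, taken against the dim probe's own signal or, if higher, the dimmest signal well above background on that array. Differences were counted at 2-fold, with no test, since a group is 1 array. The genes and lists were chosen with earlier results of these data known. Named genes are the 7, those of the fast, slow, sarcomere, excitation and myogenic lists, up to 2 highest and 2 lowest of the other lists, the 10 nearest in profile, and the marker and single-array genes described. Alternatives were other scalings, filters and probe rules, and normexp in limma 3.58.1 (R 4.3.3) with an offset of 50 on the spots' median signals, as no mean signal was among the columns used. The counting code was tested on simulated data.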

Additional observations from a re-analysis of the deposited data

Results flagged for a closer look

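For 4 of the 6 genes with a measured ratio in both comparisons, MYOZ1 being known at the ISC level only as a bound on the higher side, the ratio to the control of the same level lay on opposite sides of 0 at the ISC level and at the fused levels, a difference that was not tested, since each group is 1 array. For ACTN3 the ratio was 0.82 at the ISC level and −7.18 at the fused levels, 7.99 apart on the log2 scale. For MYL1 the ratios were 1.25 and −6.65, which are 7.90 apart. For MYL11 they were 0.52 and −6.17, which are 6.69 apart. For TNNI2 they were 0.34 and −5.20, which are 5.53 apart. With the same array, the L3/4 control, as the denominator for both, the distances between the ISC level and the fused levels were 1.83, 2.12, 0.52 and 0.69 in the same order. With the processing, the ISC-level ratios fell as low as 0.11 (ACTN3), 0.67 (MYL1), 0.12 (MYL11) and 0.08 (TNNI2). The TNNI2 ratio of 0.34 was under 2 spot errors. The share of all features with ratios on opposite sides of 0 is not given here, so the count of 4 has no background beside it.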

How the results depend on the processing

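No difference of 2-fold or more changed sign. Differences near 0 did: CKM at the ISC level against the fused levels ranged from −0.06 to 0.19, TNNC2 at the ISC level against the L3/4 control from −0.03 to 0.37, and MYL11 at the fused levels against it from −0.10 to 0.09. The counts of genes at least 2-fold lower were 7 of 7 at the fused levels and at the ISC level against the L2/3+L4/5 control, and 6 of 6 in the L3/4 control, and they stayed within 1.5 times of these under every alternative run, a 16-fold size included. At the fused levels against the L3/4 control the count was 1. It was 0 with cyclic loess, with centring on probes that were well above background on all 4 arrays, at their median, with the authors' deposited values, with normexp, and at a size of 4-fold or 16-fold, and 3 at a size of 1.5-fold. The share of all features lower there was 12.9% as reported, 11.4% with cyclic loess, 12.5% with that centring and 11.1% with the authors' values. It was 2.26% with normexp, 2.03% at 4-fold, 0.0374% at 16-fold and 28.1% at 1.5-fold. At the ISC level against the L3/4 control the count higher was 1, 0 with normexp and at 4-fold or 16-fold, and 2 at 1.5-fold, with no filter on dim probes or with probes well above background on at least 1 array. At the ISC level against the fused levels it was 2, 1 with normexp and at 4-fold, 0 at 16-fold, 3 with quantile normalization and 5 at 1.5-fold. MYOZ1 against the L3/4 control is a bound and was given no other value. The median ratio of the 7 at the fused levels against their control ranged from −6.10 to −4.45. The authors' deposited values moved the median of all features at the ISC level against the L3/4 control from −0.16 to −0.04. The share of all calls that were higher there was 46.5%, 58.9% with the authors' values, 57.7% with probes well above background on at least 1 of the arrays and 66.3% with normexp. With normexp it was 61.9% for the fused levels and 32.9% for the L3/4 control, each against the L2/3+L4/5 control, beside 46.1% and 47.7%. For the ISC level against that control it was 41.3%, 26.7% with normexp and 56.2% with probes well above background on at least 1 array. For the fused levels against the L3/4 control it was 46.5% and 65.3% with normexp, and for the ISC level against the fused levels 47.3% and 36.5%. The cause was not tested. No paired analysis was possible because each group holds 1 array, and no array could be left out of a group. Signals near background limit CKM, ACTN3 and MYOZ1 on the low arrays.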

Other observations

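SLN, the inhibitor of the calcium pump, and CASQ2, the slow and cardiac calsequestrin, departed from the pattern of the 7 genes in different ways. SLN was highest in the L2/3+L4/5 control, as the 7 were, but stood apart in the L3/4 control. Its scaled log2 levels were 1.41 at the ISC level, 3.75 in the L3/4 control, 1.57 at the fused levels and 6.44 in the L2/3+L4/5 control. SLN gave signals of 250 units at the ISC level, 718 in the L3/4 control, 254 at the fused levels and 6316 in the L2/3+L4/5 control. CASQ2 was brighter in both controls, at 47.6 units in the L3/4 control and 46.2 in the L2/3+L4/5 control, and dimmer at the ISC level, at 9.72, and at the fused levels, at 13.9. On the scaled log2 scale CASQ2 was at −0.17, −0.65, −3.27 and −2.62 in that order. Each is 1 array per group, and the CASQ2 values come from the 1 of its 3 probes that was measured.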
